A study of Mus musculus with 4 samples.

Results

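A group of 9 genes of late keratinocyte differentiation was examined in mouse embryonic fibroblast cultures under reprogramming: the cornified envelope precursors Sprr1a, Sprr2a1, Ivl (involucrin) and Lor (loricrin), the cross-linking transglutaminases Tgm1 and Tgm3, and the late epidermal genes Ly6d, Klk10 and Perp. They were found by symbol in the deposited table, where all 9 were present among 22369 genes. The set was chosen from known epidermal function with the V118M and wild-type values of these same libraries in view. The difference between the 2 groups is therefore given for these 9 genes as a description, with no test.

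The cells were OG2MEF, embryonic fibroblasts with a green fluorescent reporter driven by Oct4, sampled on day 9 of reprogramming. SOX17 WT (called WT below) had 2 libraries, and 2 came from SOX17-V118M (called V118M), an endodermal transcription factor with a missense change at the interface where it meets OCT4. Per the labels' protocols, all cultures were transduced by pMX retroviruses carrying Sox2 and Klf4 with OCT4, SOX17, SOX17-V118M or GFP, then moved to a mouse ESC medium that held LIF and vitamin C. The sources used here do not state the combination for each library. Nor do they state whether replicates came from different cultures, so p-values measure only the spread between these libraries, which may be technical. The cultures were measured in bulk, so fewer cells of a type and less RNA per cell cannot be told apart.

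The cornified envelope is the protein shell that replaces the plasma membrane of keratinocytes as they die at the skin surface. Involucrin, loricrin and the small proline-rich (SPRR) proteins are its building blocks, and transglutaminases join them through bonds between glutamine and lysine side chains. The genes for most envelope precursors lie side by side in the epidermal differentiation complex of mouse chromosome 3, a cluster that is silent in fibroblasts and switched on late in stratified epithelia. Klf4, one of the reprogramming factors, is also a regulator of this late epidermal program.

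Values are the deposited scores, called quantile-normalized here because all libraries held nearly the same set of values: 76.7% of ranks carried 1 value in all 4, the median was 76 in each, and the highest value was 61186. A value thus reflects a gene's rank within its library. Depth is unknown, because such values no longer carry it. V118M replicate 2 was the least like the rest. Its Pearson correlation with them across 12661 genes was 0.954 to 0.964, where the other 3 reached 0.986 to 0.990 among themselves. Its deviation from the mean of the other 3 also followed transcript length (Spearman's rho -0.458 across 12635 genes), with shorter transcripts placed higher. By the same measure WT replicate 1 and V118M replicate 1 followed length the other way (0.39 and 0.381), and WT replicate 2 little (0.0777). Each library was set against the mean of the other 3, so these values depend on each other and are not separate traits. Log2 fold changes below are V118M minus WT on the log2(value + 1) scale, with the standard error of the limma fit.

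All 9 genes were detected in all 4 libraries. Divided by the length of the transcript listed for each gene, the mean value was highest for Sprr1a, at 11100 per kilobase. Perp followed at 2210, Klk10 at 1650, Ly6d at 372, Lor at 352, Tgm1 at 322, Tgm3 at 123, Ivl at 54.9 and Sprr2a1 at 11.3. Ly6d, Lor and Tgm1 lie too close in that order to be ranked, since Ly6d alone differed by more than that between the V118M libraries. The order is a rough description, because the values are scores of unstated unit and it depends on the transcript listed. Sprr1a stood at the 99.2 to 99.5 percentile of all genes in each library, whereas Ivl stood at 52.4 to 53.9. Of the 9 genes, 8 had a higher mean log2 value in V118M and 1 a lower one, with a median log2 fold change of 0.31 against 0.00 for all 19547 genes tested. The WT and V118M values did not overlap in 7 genes. In 6 of them (Sprr1a, Lor, Tgm1, Tgm3, Ly6d and Klk10) both V118M libraries were above both WT libraries, as they were in 13.2% of all tested genes. In 1, Sprr2a1, both were below, as in 14.8% of all tested genes. Since these genes were selected with the contrast known, nothing is read from the comparison of these shares.

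**Figure D1:**
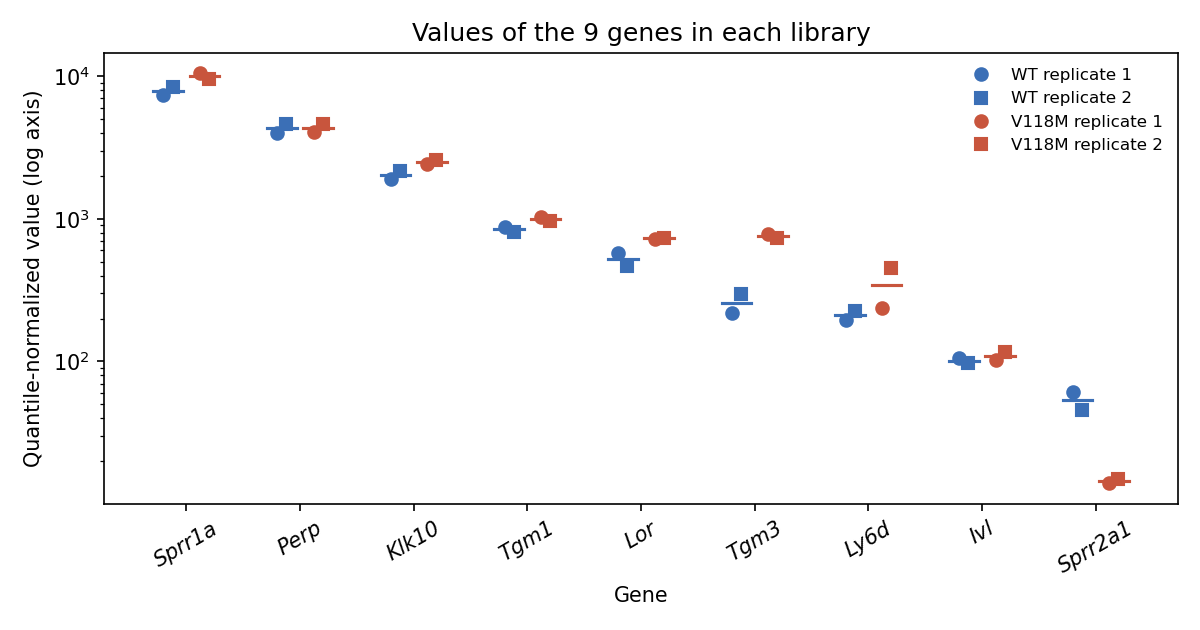
Quantile-normalized value (vertical log axis) of each of the 9 genes (horizontal axis) in the 2 WT (blue) and 2 V118M (red) libraries, with circles for replicate 1, squares for replicate 2 and a line at each group mean. Tgm3 is the gene whose V118M points (786 and 737) lie farthest above its WT points (219 and 296), and Sprr2a1 is the gene whose V118M points (14 and 15) lie below its WT points (61 and 46).

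**Figure D2:**
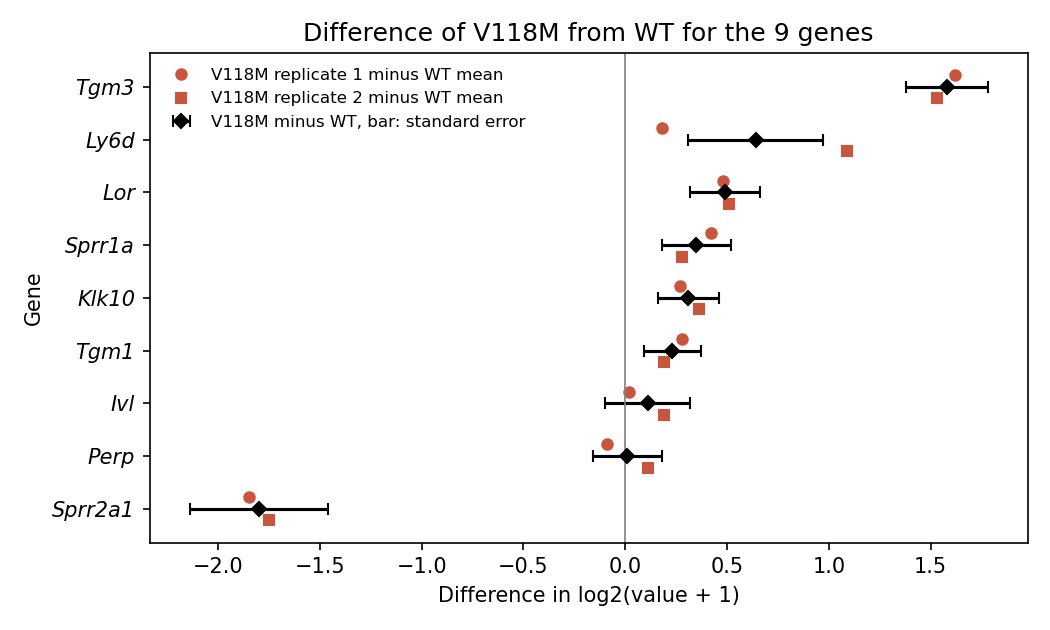
Difference in log2(value + 1) of V118M from WT (horizontal axis) for the 9 genes (vertical axis), with black diamonds and bars for the log2 fold change and its standard error, and red points for each V118M library against the WT mean. Sprr2a1 is at -1.80 and Tgm3 at 1.58. The 2 V118M libraries are close together for each of these, and far apart for Ly6d (0.18 and 1.09).

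Among the envelope precursors, Sprr1a (ENSMUSG00000050359, GRCm38 chromosome 3, 92483952 to 92485895, minus strand) encodes a proline-rich cross-bridging protein of the envelope. Its values were 7330 and 8364 in WT and 10450 and 9537 in V118M. Both V118M libraries were above both WT libraries, with means of 9993.5 ± 646 against 7847 ± 731 (SD, n = 2 each) and a log2 fold change of 0.35 ± 0.17 (standard error). Lor (ENSMUSG00000043165, chromosome 3, 92080271 to 92083142, minus strand) encodes loricrin, the glycine-rich main component of the mature epidermal envelope. It was at 578 and 465 in WT and at 722 and 737 in V118M. The V118M libraries agreed closely and were 1.40 times the WT mean (log2 fold change 0.49 ± 0.17). Ivl (ENSMUSG00000049128, chromosome 3, 92570902 to 92573735, minus strand) encodes involucrin, an early scaffold of the envelope. It was at 105 and 98 in WT and at 103 and 116 in V118M, so its groups overlapped and the log2 fold change of 0.11 was smaller than its standard error of 0.21.

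Promoter sequence was at hand for 7 of the 9 genes in RefSeq's windows for GRCm38.p6, each reaching from 250 bases before a transcript's start to 50 after it. Ly6d and Perp had none. The 120 bases before the start (the more upstream of the RefSeq and GENCODE M21 starts) are shown for the 3 precursor genes and Tgm3 whose groups did not overlap, to set the gene that was lower in V118M beside those that were higher. The Sprr2a1 stretch also lies shortly before the annotated start of Sprr2a2 (92215920), a copy treated below whose groups overlapped. It is therefore not particular to the gene with lower values. Capitals mark matches to TATAAA, the letters of a TATA box, and to TGANTCA, the letters of an AP-1 site, on either strand. The 2 motifs did not overlap.

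Sprr1a, chr3:92485896-92486015 (minus strand): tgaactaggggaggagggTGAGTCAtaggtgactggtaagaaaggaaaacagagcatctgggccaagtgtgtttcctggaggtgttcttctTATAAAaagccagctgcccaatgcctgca

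Lor, chr3:92083143-92083262 (minus strand): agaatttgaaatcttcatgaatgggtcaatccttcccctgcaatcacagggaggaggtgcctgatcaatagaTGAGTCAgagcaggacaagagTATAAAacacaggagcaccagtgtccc

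Tgm3, chr2:130012220-130012339 (plus strand): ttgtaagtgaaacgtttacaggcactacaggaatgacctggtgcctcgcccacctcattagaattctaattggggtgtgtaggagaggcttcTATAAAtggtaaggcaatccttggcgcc

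Sprr2a1, chr3:92215679-92215798 (plus strand): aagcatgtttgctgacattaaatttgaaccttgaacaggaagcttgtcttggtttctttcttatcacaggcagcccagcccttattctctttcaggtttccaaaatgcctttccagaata

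The TATA letters were found in the windows of 4 of 7 genes (Ivl, Lor, Sprr1a and Tgm3), and in 13.6% of all 32851 windows of the same length. They began 27 bases before the RefSeq start in Lor (-27), at -28 in Tgm3, at -29 in Ivl and at -43 in Sprr1a. The GENCODE start of Sprr1a (92485895), where the stretch shown ends, lies upstream of its RefSeq start (92485881). Counted from the GENCODE start, the letters in Sprr1a are therefore nearer than -43. The AP-1 letters were found in 3 of 7 (Ivl, Lor and Sprr1a), against 7.81% of all windows, and Sprr1a held 2 matches, 1 of them within the bases shown. Both motifs were absent from the Sprr2a1, Tgm1 and Klk10 windows. The letters CACCC, also searched, were found in 6 of 7 genes (Ivl, Klk10, Sprr1a, Sprr2a1, Tgm1 and Tgm3) and in 57.5% of all windows. The letters ATTGT, part of the compressed SOX/OCT element named in the series' design, were found in 4 of 7 genes (Ivl, Lor, Sprr1a and Tgm3) and in 31% of all windows. The octamer part of that element, ATGCAAAT, was found in 0 of 7 genes and in 1.74% of all windows. The whole compressed element was found in 0 of the 32851 windows. An exact match to all 14 letters would be rare in windows of this length, so nothing is read from that count. These are matches of letters, given as a description of the genes.

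Sprr2a1 (ENSMUSG00000078664, chromosome 3, 92215799 to 92221911, plus strand), another proline-rich precursor, was the 1 gene of the 9 with lower values in V118M. It was at 61 and 46 in WT and at 14 and 15 in V118M. Both V118M libraries were below both WT libraries, at 14.5 ± 0.707 against 53.5 ± 10.6 (SD, n = 2 each), and the WT mean was 3.69 times the V118M mean. The log2 fold change was -1.80 ± 0.34, between -2.0 and -1.6 when any 1 library was left out. The gene has 2 near-identical copies, Sprr2a2 and Sprr2a3, and reads can be split among the copies. The annotated span of Sprr2a2 (92215920 to 92256724, plus strand) overlaps that of Sprr2a1, so these entries are not fully separate. The coding sequences of Sprr2a1 and Sprr2a2, each of 252 bases, were identical (0 mismatches) in the annotation's transcripts, and Sprr2a3 differed from them at 3 bases. The coding sequence is shown for Sprr2a1, which is also that of Sprr2a2, and for Sprr2a3, with the differing bases in capitals.

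Sprr2a1, chr3:92219092-92219343 (GRCm38, plus strand): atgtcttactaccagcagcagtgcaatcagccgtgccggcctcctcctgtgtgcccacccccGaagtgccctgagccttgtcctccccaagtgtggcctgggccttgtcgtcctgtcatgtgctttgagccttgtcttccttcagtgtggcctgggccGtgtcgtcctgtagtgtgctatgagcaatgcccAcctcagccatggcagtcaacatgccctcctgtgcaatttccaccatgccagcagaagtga

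Sprr2a3, chr3:92288588-92288839 (GRCm38, plus strand): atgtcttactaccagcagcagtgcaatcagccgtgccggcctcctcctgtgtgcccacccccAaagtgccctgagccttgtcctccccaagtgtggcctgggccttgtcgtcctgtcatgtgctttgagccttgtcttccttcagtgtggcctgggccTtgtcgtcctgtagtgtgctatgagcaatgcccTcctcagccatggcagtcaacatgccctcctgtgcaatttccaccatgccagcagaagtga

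Over the last 2867 bases of the transcripts used in the table, Sprr2a1 and Sprr2a2 were 99.93% identical, and Sprr2a1 and Sprr2a3 98.78%. Of all stretches of 100 bases in the Sprr2a1 transcript, 88.4% occurred unchanged in that of Sprr2a2. Sprr2a2 was the more abundant copy, at 576 and 444 in WT and 406 and 503 in V118M, and its groups overlapped. Sprr2a3 was at 108 and 88 against 88 and 101, and its groups overlapped too. The 3 copies summed to 745 and 578 in WT and to 508 and 619 in V118M, an overlap of the groups that Sprr2a1 alone did not show. Sprr2a1 made up 8.19% and 7.96% of that sum in WT and 2.76% and 2.42% in V118M. The part that the assignment of reads shared by the copies played in the Sprr2a1 values was not tested.

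**Figure D3:**
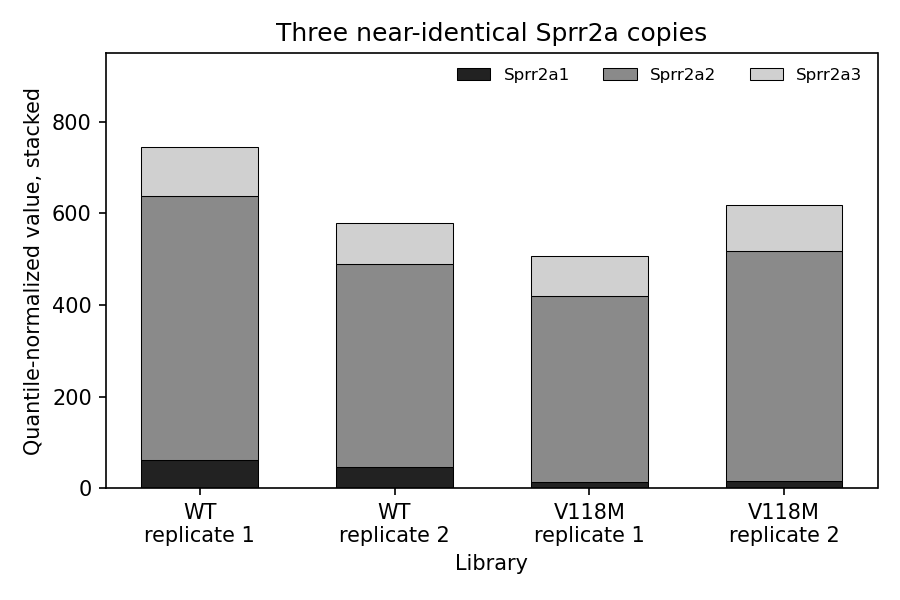
Quantile-normalized values of Sprr2a1 (black), Sprr2a2 (grey) and Sprr2a3 (light grey), stacked on a vertical axis from 0, in each library (horizontal axis). Sprr2a1 is a thin part of each bar, and the bar heights of WT (745 and 578) and V118M (508 and 619) overlap.

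The transglutaminases catalyse the cross-links of the envelope. Tgm3 (ENSMUSG00000027401, chromosome 2, 130012349 to 130050399, plus strand), the form of the hair follicle and the upper epidermis that is activated by proteolysis, was at 219 and 296 in WT and at 786 and 737 in V118M. The groups lay far apart: means were 257.5 ± 54.4 and 761.5 ± 34.6 (SD, n = 2 each), a ratio of 2.96. The log2 fold change was 1.58 ± 0.20, the highest of the 9 genes, and it stayed between 1.36 and 1.79 when any 1 library was left out. Among the 19547 tested genes 285 had a larger log2 fold change. That rank is a description only, because Tgm3 was chosen with this contrast known. Tgm1 (ENSMUSG00000022218, chromosome 14, 55700009 to 55713926, minus strand), the membrane-anchored form of keratinocytes, was at 876 and 814 in WT and at 1024 and 962 in V118M. Its groups did not overlap, but the shift was small, with a log2 fold change of 0.23 ± 0.14. Of 8 other members of the transglutaminase family 5 were in the table, and 0 of them passed an adjusted or unadjusted p of 0.05. The widely expressed Tgm2 was at 690 and 622 against 609 and 476, lower in both V118M libraries. Tgm5, another epidermal form, was at 100 and 108 against 106 and 87. Tgm4 was at 124 and 152 against 136 and 140, and F13a1, a subunit of coagulation factor XIII, at 34 and 32 against 50 and 36.

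The late epidermal genes outside the envelope itself followed 3 patterns. Klk10 (ENSMUSG00000030693, chromosome 7, 43781035 to 43785410, plus strand), a secreted protein of the kallikrein family of serine proteases, was at 1900 and 2150 in WT and at 2442 and 2589 in V118M. Both V118M libraries were higher (log2 fold change 0.31 ± 0.15). Ly6d (ENSMUSG00000034634, chromosome 15, 74762056 to 74763620, minus strand), a lipid-anchored surface protein of keratinocytes and of some lymphoid progenitors, was at 194 and 227 in WT and at 238 and 449 in V118M. Its V118M libraries differed by 0.91 on the log2 scale, so the log2 fold change of 0.64 ± 0.33 rested on V118M replicate 2 and was 0.18 without it. Perp (ENSMUSG00000019851, chromosome 10, 18845020 to 18857073, plus strand), a membrane protein of desmosomes and a target of p53 and p63, was at 3994 and 4620 in WT and at 4035 and 4620 in V118M. Its groups overlapped almost fully, with a log2 fold change of 0.01 ± 0.17. Its mean value per kilobase was the second highest of the 9 genes.

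Other genes of the envelope were read from a list of 54 further precursors and genes of the epidermal differentiation complex. Of these, 51 were in the table and all 51 passed the filter on low values. None of them rose or fell past an adjusted p of 0.05, nor did any other of the 19547 genes (limma, lowest adjusted p = 0.205), so 0% were called in all. At an unadjusted p under 0.05, 8 list genes were higher in V118M and 1, Flg, was lower, where 2.31% of all tested genes were higher and 1.70% lower. Both V118M libraries were above both WT libraries in 29 of 51 (56.9%), beside the 13.2% of all genes given above. They were below in 2, beside 14.8% of all tested genes. This list and those below were also chosen with earlier results of these data known. Their shares beside those of all genes are therefore a description, and nothing is read from the comparison. The list's median log2 fold change was 0.46. It was 0.32 in V118M replicate 1 alone and 0.54 in V118M replicate 2 alone. Without V118M replicate 2, 32 of the 51 had the remaining V118M library above both WT libraries, as did 28.1% of all tested genes.

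The late cornified envelope (LCE) family, small cysteine- and glycine-rich proteins of the outer envelope, made up 21 genes of that list. All 21 had a log2 fold change above 0, as had 9779 of all 19547 tested genes. They ranged from 0.08 to 1.81 with a median of 0.77. In 15 of them both V118M libraries exceeded both WT libraries, as in 13.2% of all tested genes. Some of the 21 had values of only a few units. The highest fold change, of Lce1l, came from 1 and 10 in WT against 14 and 17 in V118M, with a standard error of 0.9. Lce1j was at 6 and 2 against 6 and 6, and Lce1k at 4 and 6 against 6 and 13. Chosen after their values were seen, Lce3c was at 150 and 148 in WT and at 273 and 457 in V118M, and Lce1d at 146 and 160 against 256 and 469. Lce1i was at 10 and 10 against 26 and 50. V118M replicate 2 was the higher of the V118M libraries in 19 of the 21, with a median difference from the WT mean of 1.16, against 0.55 in V118M replicate 1. LCE transcripts were short, at a median of 703 bases against 2424 for all tested genes. With the trend on transcript length removed from each library the family's median was 0.69 and 16 genes had both V118M libraries above both WT libraries, as did 17.8% of all tested genes after the same step. Reads of the LCE genes may be split between similar copies, and the part this played was not tested.

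The 12 other SPRR genes had a median of 0.36, and 6 of them had both V118M libraries above both WT libraries, as did 13.2% of all tested genes. Their transcripts were short too, at a median of 716.5 bases. With the length trend removed their median was 0.28. Only 4 of the 12 then had both V118M libraries above both WT libraries, as did 17.8% of all tested genes. Sprr3 was at 550 and 506 against 750 and 623, and Sprr1b at 249 and 238 against 312 and 336. The fused S100 genes, long filaggrin-type proteins that bundle keratins or fill the cell at a later stage, had a median of -0.26 over 7 genes, 3 above 0 and 4 below. Flg, which encodes filaggrin, was at 82 and 76 against 52 and 42, whereas Tchh, trichohyalin of the hair follicle, was at 1538 and 1457 against 1802 and 1606. All 7 had lower values in V118M replicate 2 than in V118M replicate 1, and their transcripts were long, at a median of 4523 bases. Periplakin (Ppl) and envoplakin (Evpl), plakins that start envelope assembly at desmosomes, overlapped between the groups, at 3612 and 3728 against 3728 and 2410 and at 3342 and 3250 against 3250 and 2381. Sbsn, a secreted protein of the suprabasal layers, was at 1588 and 1564 against 1828 and 1925.

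**Figure D4:**
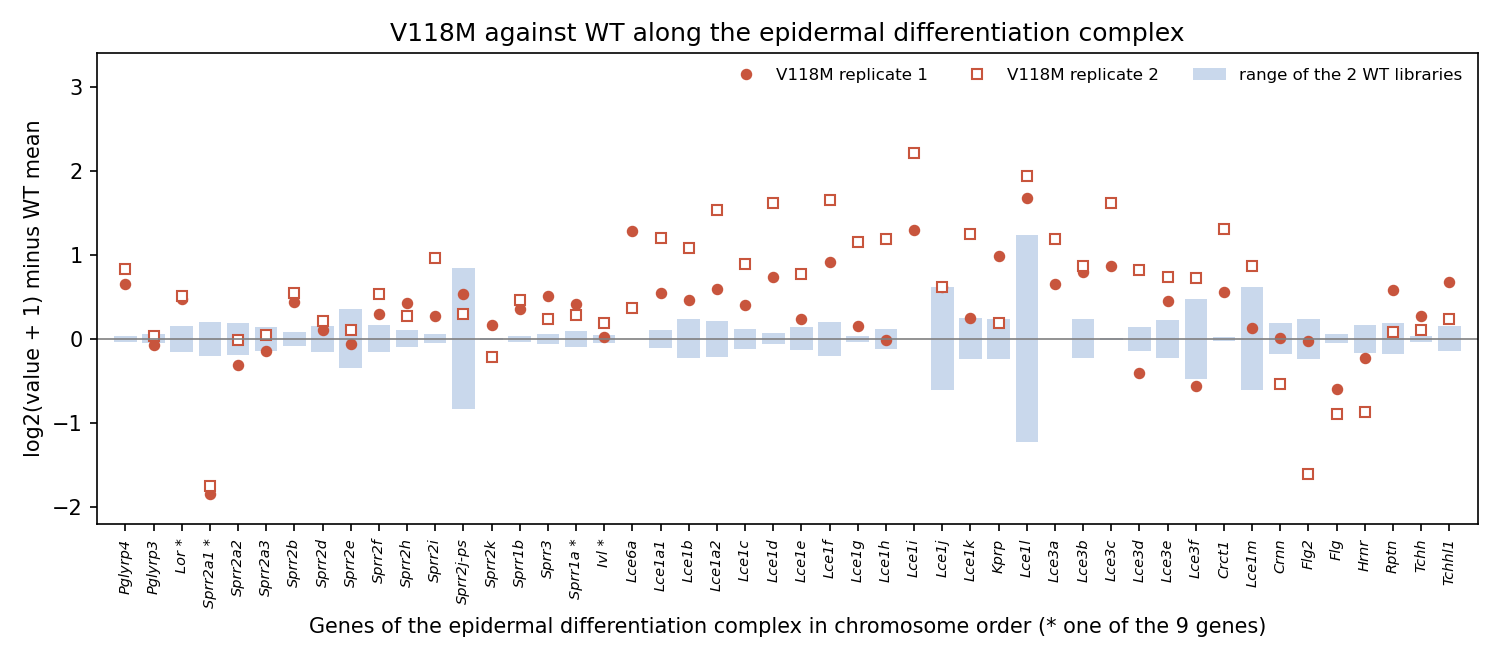
Difference in log2(value + 1) from the WT mean (vertical axis) of V118M replicate 1 (filled circles) and V118M replicate 2 (open squares) for 48 genes of the epidermal differentiation complex in chromosome order (horizontal axis, asterisks on 4 of the 9 genes), with blue bars for the range of the 2 WT libraries. Both V118M libraries lie above both WT libraries in 27 genes (13.2% of all tested genes) and below in 3, Sprr2a1, Flg and Hrnr (14.8% of all tested genes). The open squares are the higher ones for 19 of the 21 LCE genes, with Lce6a lower and Lce1j equal.

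Klk10 lies in the kallikrein cluster of chromosome 7, whose proteases degrade the junctions of shed corneocytes. Of the 11 other kallikrein genes in the table, 10 had a log2 fold change above 0, with a median of 0.16. In 4 (Klk8, Klk9, Klk11 and Klk13) both V118M libraries were above both WT libraries, as in 13.2% of all tested genes. None of the 11 had an adjusted or unadjusted p under 0.05. Chosen as neighbours after their values were seen, Klk11, the table's gene next to Klk10 on one side, was at 474 and 432 against 486 and 514, and Klk9, next on the other, at 178 and 206 against 244 and 246. All 11 were higher in V118M replicate 2 than in V118M replicate 1, and the median was 0.35 in the former and 0.08 in the latter. Spink5, an inhibitor of these proteases, was at 1790 and 1772 against 2450 and 3554. Klk1 was at 2901 and 4498 against 3512 and 4610, Spint2, another protease inhibitor, at 2027 and 2009 against 1884 and 2674, and the filaggrin-processing protease gene Asprv1 at 1920 and 1745 against 2023 and 2172. Casp14, a protease of the terminal layers, was at 34 and 20 against 12 and 6.

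For 22 other genes of the LY6 family, to which Ly6d belongs, the median was 0.02. Of these, 16 overlapped between the groups, as did 14069 of all 19547 tested genes. The abundant Ly6a was at 5324 and 6325 in WT and at 5324 and 7316 in V118M, and Slurp1, a secreted member of keratinocytes, at 3020 and 3920 against 3402 and 4029. Ly6e was at 4919 and 5457 against 5670 and 5226, and Ly6c1 at 4448 and 5335 against 4374 and 5000. Perp was set beside desmosome, PMP22 family and p53 target genes, to which it belongs by structure and control. The desmosome genes had a median of 0.03 over 14 genes, and the 5 other PMP22 family genes overlapped between the groups without exception. Desmoplakin (Dsp) had the shared maximum of 61186 in both WT libraries and in V118M replicate 1, but 12776 in V118M replicate 2. Jup, plakoglobin, was at 5664 and 5664 against 5214 and 4192, Pkp1 at 3512 and 3221 against 3369 and 2147, and Pkp4 at 1117 and 1192 against 1292 and 1296. Emp1 was at 19013 in every library, Emp2 at 3146 and 3062 against 2910 and 3406, Emp3 at 1632 and 2055 against 1868 and 2160, and Pmp22 at 1698 and 1855 against 1725 and 2152. The p53 targets were below WT in 16 of 19, with a median of -0.14. In 7 both V118M libraries were below both WT libraries, as in 14.8% of all tested genes. Cdkn1a, the p53-induced cell cycle inhibitor p21, was at 7328 and 8064 against 6980 and 6702. Mdm2, which targets p53 for degradation, was at 2431 and 2676 against 2154 and 1810, Zmat3 at 2573 and 2670 against 2502 and 2252, and Ccng1 at 17588 in all but V118M replicate 2, which had 13635. Of these 3 lists, 1 gene had an unadjusted p under 0.05, the p53 target Trp53inp1, and 0 an adjusted one. Trp53inp1 was lower in V118M, as were 1.70% of all tested genes at that unadjusted threshold.

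Genes of the keratinocyte layers below the envelope were mixed. Among suprabasal and stress keratins 16 genes were tested, with a median of 0.33. Krt6a, a keratin of wounded and hair follicle epithelium, was at 5214 and 4554 against 8053 and 6140, and its partner Krt16 at 1924 and 1756 against 2880 and 3540. Krt17 was at 1364 and 1399 against 2427 and 2962, and Krt80 at 2644 and 2453 against 2437 and 1544. Of the keratin pair of normal suprabasal epidermis, 1 overlapped between the groups and 1 was lower in both V118M libraries: Krt1 was at 1637 and 1504 against 1564 and 1457, and Krt10 at 171 and 166 against 134 and 123. In 12 basal keratinocyte genes the median was -0.12, and 0.18 without V118M replicate 2. Krt14, the basal keratin, was at 4752 and 4358 against 5802 and 8053, and its partner Krt5 at 246 and 199 against 664 and 731. Krt5 was thus 1.65 ± 0.18 higher on the log2 scale, at an adjusted p of 0.332 by limma. Krt15 was at 8 and 10 against 21 and 18. Trp63, the p63 gene of basal cells, was at 105 and 107 against 112 and 92. The hemidesmosome and basement membrane genes Dst (14830 and 14830 against 16310 and 6980), Itgb4 (12752 and 10437 against 14813 and 6967) and Lama3 (3311 and 2883 against 3618 and 1532) were low in V118M replicate 2. Of these 28 genes, 7 had an unadjusted p under 0.05 with higher values in V118M (Krt5, Krt6a, Krt6b, Krt13, Krt14, Krt16 and Krt17), and 0 an adjusted one. Over all tested genes 2.31% were higher at that unadjusted threshold.

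Regulators of keratinocyte differentiation had a median of -0.07 over 37 genes and 0.05 without V118M replicate 2. Klf4 held 29444 in all but V118M replicate 2, which had 17589, values that include any transcript of the delivered virus that was counted. Fosl2, an AP-1 subunit, was at 3369 and 3398 against 3081 and 2345. Notch2 was at 8364 and 5812 against 8066 and 3545, Nfe2l2 at 3224 and 3422 against 3040 and 3452, and Grhl3, a factor needed for the skin barrier, at 291 and 284 against 294 and 235. Lipid barrier genes had a median of -0.07 over 22 genes (0.09 without V118M replicate 2). The ceramide synthase gene Cers3 was at 132 and 146 against 170 and 181. Aqp3, a glycerol channel, was at 3109 and 3109 against 2549 and 2738, Elovl6 at 1450 and 1398 against 1836 and 1814, Ugcg at 1550 and 1544 against 1588 and 1600, and Cyp4f39 at 1562 and 1465 against 1519 and 1170. S100 genes of the same chromosome 3 cluster and elsewhere had a median of 0.16 over 15 genes (-0.10 without V118M replicate 2), and S100a6 was at 6332 and 6150 against 6150 and 9534. S100a11 was at 4442 and 6490 against 5574 and 5457, S100a10 at 4560 and 5227 against 4284 and 5974, and S100a4 at 2674 and 2938 against 2845 and 4034. Whether the difference between the envelope list and any of these lists exceeds what the libraries' spread allows was not tested.

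The keratinocyte label was checked against marker genes. All 10 keratinocyte markers were present, and their summed values were 10507 and 9851 in WT and 12356 and 15005 in V118M, so the sums did not overlap. Krt14 made the largest part of each sum. By gene, 6 of the 10 were higher in both V118M libraries than in both WT libraries, 2 (Krt10 and Dsg3) were lower in both, and 2 (Krt1 and Trp63) overlapped. Over all tested genes 13.2% were higher in this way and 14.8% lower. Fibroblast markers summed to 169605 and 171398 against 171907 and 139886, with Col1a2 at 29492 in every library and Col3a1 at 61186 in all but V118M replicate 2 (29496). Simple epithelium markers summed to 24467 and 26067 against 24237 and 26794. Leukocyte markers were low, at 870 and 815 against 612 and 627, with Ptprc at 165, 58, 30 and 0. Pluripotent cell markers summed to 178 and 238 against 306 and 292, with Dppa4 listed at 0 in every library and Nanog at 1 and 8 against 6 and 6. Of the trophoblast markers Cdx2 and Hand1 were listed at 0 throughout. The part of a changed share of keratinocyte-like cells in the values above was not tested.

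By Euclidean distance between centred log2 profiles over the 4 libraries, among 1193 genes whose log2(value + 1) averaged 5 or more and spanned 1 or more, the genes most like Sprr2a1 were Chil5, Sox7 and Plekhs1, at distances of 0.416, 0.563 and 0.579. Chil5 was at 100 and 93 in WT and at 19 and 26 in V118M, and Sox7, a transcription factor of the same subgroup as Sox17, at 73 and 52 against 24 and 27. Sprr1a itself spanned only 0.51, so genes with a span as small as its own were not candidates. Of the candidates, Tdrd1, Col28a1 and Bcl3 were nearest to it, at 0.436, 0.45 and 0.461. They need not be the genes most like it. Bcl3 was at 97 and 103 against 196 and 148. With 4 libraries many genes have near-equal profiles, so these names are a description.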

How the data were processed

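RNA sequencing libraries of OG2MEF cultures on day 9 were compared, 2 labelled WT and 2 labelled V118M. TRIzol extraction and a TruSeq Nano RNA kit were used, per the labels' protocols. FastQC, RSEM, Bowtie2, DESeq2 and mm10 are named, per the submitters' processing notes, with no role or version. The deposited score for each gene is a whole number that is not a raw count: the column totals differed by at most 0.0321%, as after quantile normalization. No normalization step is named in the sources used here. Depth is unknown, so no counting intervals are given, and the top ranks share values, which hides differences there.

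Genes were matched by transcript to GENCODE M21 of GRCm38 (22304 transcripts found, 95.9% with a start within 1 base). The filter asked for 1 or more in 2 libraries and passed 19547 genes. On log2(value + 1), limma (version 3.58.1, R 4.3.3) was run over these with group as the only term and the trend and robust options, two-sided, with Benjamini-Hochberg adjustment. The planned count test was not used, because the values are not counts. The function was tested on simulated data. The 9 genes and all lists were chosen with earlier results of these data known. All 9 genes are named. By rule, up to 4 genes of each list with the highest mean log2 value are named, plus any with an adjusted p under 0.05. So are the 3 candidate genes nearest in profile to Sprr2a1 and to Sprr1a, where candidates spanned 1 or more. Other genes named were chosen after their values were seen. Sprr2a copies were aligned with Biopython 1.88. Alternatives were pseudocounts of 0.1 and 5, no filter, a minimum of 10, the replicate block, each library left out, removal of a length trend (loess, span 0.3) and array quality weights.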

Additional observations from a re-analysis of the deposited data

How the results depend on the processing

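Of 90 recomputed log2 fold changes of the 9 genes, 86 kept their sign and stayed within the spread between replicates. Sprr2a1 moved beyond that spread with a pseudocount of 5 (-1.57 against -1.80). Perp, whose value is near 0, stayed within it but changed sign in 3 settings. These were without WT replicate 1 (-0.10), without V118M replicate 2 (-0.09) and with the length trend removed (rounded to 0.00). The sign changed for none of the other 8. Filters and the replicate block cannot change a gene's fold change. Leaving out 1 library cannot move it beyond this spread, so the count of 86 is no measure of robustness. The median of the 9 genes ranged from 0.26 to 0.34 when 1 library was left out and was 0.26 with the length trend removed. Between 7 and 8 of the 9 had groups without overlap in these settings. Leaving out a library can only keep or raise such a count, so no robustness is read from it. Of all tested genes, 13.2% were higher in V118M without overlap in the main setting, and 20.9% to 42.5% when 1 library was left out. Of the 51 other envelope genes, 29 had V118M above WT without overlap. In alternatives chosen after seeing the data this was 30 with the length trend removed (17.8% of all tested genes) and 32 to 36 when 1 library was left out (20.9% to 42.5%, the highest share in the setting that gave 36, without V118M replicate 1). No gene had an adjusted p under 0.05 in 10 of the 11 alternatives run. The number at an unadjusted p under 0.05, 784, was 1441 with no filter and 221 to 5096 when 1 library was left out, fits with fewer libraries. With the replicate block it was 1204, and 3 genes, 0 of them among the 9, had an adjusted p under 0.05. The libraries share only a number: same-numbered deviations correlated at 0.303 over 12661 genes, from 2 pairs. Count tests could not be run on these values. Values at the shared maximum and at a few units limit what can be seen.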
